A study of Mus musculus with 17 samples.

Results

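Tent5a, Tent5b and Tent5c encode members of the TENT5 family (older name FAM46), the cytoplasmic non-canonical poly(A) polymerases. Their levels were examined in the dissected hippocampus of adult male C57BL/6J mice, 1 animal per Affymetrix mouse expression array. In 8 mice sleep was prevented by handling them gently in their own cages over 5 h, and 9 control mice were not disturbed. The genotype of both groups is labelled C57/BL6, with no other allele or agent, and both were housed singly, handled daily for 6 days beforehand and 2 months old by the sample labels (2 to 4 months by the growth protocol). No group was handled for 5 h without losing sleep, so being awake and being handled cannot be told apart. All probe sets, the groups of short probes that read a transcript, were taken whose platform annotation gave a single symbol of the family. This gave 3 of 18193 genes and 4 of 45037 probe sets: 1 for Tent5a, 1 for Tent5b and 2 for Tent5c. The family was chosen on the difference of Tent5a between these same arrays. The differences between the groups are therefore given below as a description, with a standard error (SE) and without a test.

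Poly(A) polymerases add adenosines to the 3′ end of RNA. The canonical enzymes do so in the nucleus when a message is made, whereas TENT5 enzymes lengthen the tails of selected messages in the cytoplasm, mainly messages translated at the endoplasmic reticulum into secreted and membrane proteins, and so raise their stability and output. TENT5A is known from bone, where it acts on collagen messages and where its loss causes brittle bones in mice and humans. TENT5C is known as a tumour suppressor of human multiple myeloma and acts on immunoglobulin messages of plasma cells, and the role of TENT5B is less well described. An expression array reads the amount of these messages, not the length of any tail.

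The start regions of the 3 genes are shown as a description, and their part in any difference between the groups was not tested. Each run is the RefSeq window from 250 bases before to 50 after the transcript start, in GRCm38.p6, written 5′ to 3′ on the gene's strand. Capitals mark every match to the motifs searched.
Tent5a, chr9:85327101-85327400, minus strand: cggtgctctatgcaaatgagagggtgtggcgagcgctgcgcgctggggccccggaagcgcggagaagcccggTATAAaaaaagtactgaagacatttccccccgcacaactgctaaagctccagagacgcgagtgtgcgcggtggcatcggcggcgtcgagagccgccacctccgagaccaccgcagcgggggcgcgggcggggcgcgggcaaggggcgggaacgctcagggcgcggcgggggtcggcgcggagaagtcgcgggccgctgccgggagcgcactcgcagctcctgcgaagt
Tent5b, chr4:133479883-133480182, plus strand: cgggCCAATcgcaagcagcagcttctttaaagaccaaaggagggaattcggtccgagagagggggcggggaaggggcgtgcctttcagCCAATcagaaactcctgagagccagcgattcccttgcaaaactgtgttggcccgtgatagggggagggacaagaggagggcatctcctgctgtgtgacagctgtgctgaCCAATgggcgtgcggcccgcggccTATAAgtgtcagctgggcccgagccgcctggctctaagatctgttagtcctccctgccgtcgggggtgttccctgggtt
Tent5c, chr3:100489143-100489442, minus strand: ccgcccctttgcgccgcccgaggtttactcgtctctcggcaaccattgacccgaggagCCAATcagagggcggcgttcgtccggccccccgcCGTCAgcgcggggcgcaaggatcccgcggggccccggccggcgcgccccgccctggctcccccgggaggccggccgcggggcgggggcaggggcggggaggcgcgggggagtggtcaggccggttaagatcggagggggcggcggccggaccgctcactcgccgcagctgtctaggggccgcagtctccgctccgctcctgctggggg

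The motifs searched on both strands were the cyclic AMP response element (TGACGTCA), the first part of that element (TGACG), an E-box, the palindrome CACGTG, the last part of the endoplasmic reticulum stress element (CCACG), the site of the factor AP-1 (TGAGTCA), a part of the glucocorticoid response element (TGTTCT) and the promoter box known as CCAAT. The core of the TATA box, TATAA, was added after the sequences had been seen. The full and the partial cyclic AMP element overlap where both match. In the Tent5a window TATAA was the single match, starting at position -178 from the start, and 24.9% of 32817 promoter windows hold it. A second RefSeq start of Tent5a gives an overlapping window, chr9:85327075-85327374, with the same match at -204. The Tent5b window held CCAAT at -246, -162 and -53 and TATAA at -29. CCAAT occurs in 37.4% of windows. The Tent5c window held CCAAT at -192 and the reverse complement of TGACG at -158, a motif of 20.8% of windows. The full cyclic AMP element (1.79% of windows), the E-box (7.15%), the stress element part (32.8%), the AP-1 site (5.2%) and the glucocorticoid element part (19.0%) matched in none of these windows. The windows of Tent5a and Tent5c were rich in G and C, at 70.3% and 78.0%, and that of Tent5b had 60.7%, against a median of 52.7% over all windows. These are matches of letters only.

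The values are log2 signals as the authors summarised them with RMA, so a difference of 1 is a doubling. Array medians of the 17 arrays lay close together, and the markers of the labelled tissue were present. The mean of 10 markers of hippocampal principal cells lay between 9.52 and 9.91 in sleep-deprived and between 9.62 and 9.88 in undisturbed animals. The mean of 8 neuronal markers lay between 11.98 and 12.25 in sleep-deprived and between 12.14 and 12.27 in undisturbed animals. The mean of 12 markers of the choroid plexus, the secretory epithelium beside the hippocampus, varied more, from 5.59 to 7.31 in sleep-deprived and from 5.58 to 7.06 in undisturbed animals. All 12 had positive differences and none passed the limma test over all genes described below (1 had an unadjusted p under 0.05), which 1.25% of all genes passed as higher. A measure of RNA quality, how far control probe sets at the 3′ end exceed those at the 5′ end, lay between 0.200 and 0.417 in sleep-deprived and between 0.210 and 0.302 in undisturbed animals. Array number limits the precision, and in whole tissue fewer cells of a type and less RNA per cell cannot be told apart.

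Tent5a was about 1.5 times as high in sleep-deprived as in undisturbed hippocampus, and the groups did not overlap. Its probe set read 6.60 at the lowest, 6.78 at the median and 6.94 at the highest of 8 sleep-deprived arrays. In the 9 undisturbed arrays it read 5.82 at the lowest, 6.24 at the median and 6.37 at the highest. Every sleep-deprived animal therefore lay above every undisturbed animal, with a gap of 0.23 between the lowest of the first and the highest of the second. The means were 6.775 ± 0.13 (SD, n = 8) after sleep deprivation and 6.19 ± 0.18 (SD, n = 9) in undisturbed animals. The log2 difference was 0.58 (SE 0.073) or 1.495-fold. It was 3.60 times the pooled SD within groups.

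**Figure D1:**
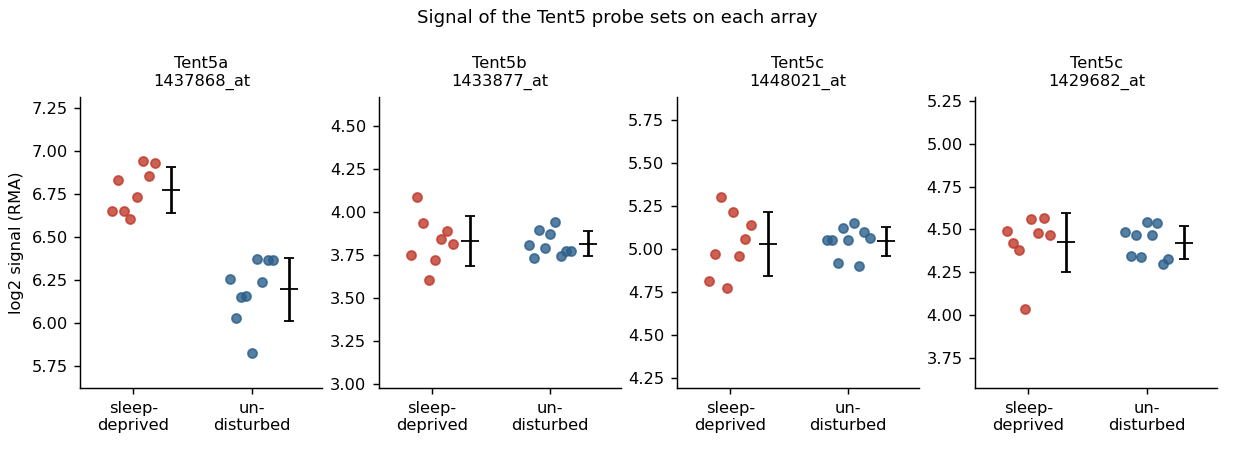
Log2 signal of the 4 Tent5 probe sets on each array, with sleep-deprived animals (n = 8) left of undisturbed animals (n = 9) in each panel. Points are arrays, black bars are means ± SD, and all panels span the same number of log2 units. The Tent5a groups are separated, from 6.60 to 6.94 against 5.82 to 6.37, and those of Tent5b and Tent5c overlap.

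Of the 4 Tent5 probe sets, 1 had all sleep-deprived arrays above all undisturbed arrays, as had 0.138% of all 45037 probe sets. Nothing is read from that count, since this contrast chose the family. In the order of differences over all probe sets Tent5a stood at rank 6. Just above it were Fos (0.74, SE 0.13), a probe set without a symbol (0.72, SE 0.12) and Arc (0.66, SE 0.11), both named genes being markers of recent neuronal activity. Just below it were Ttr (0.58, SE 0.97) and Clic6 (0.57, SE 0.57), which choroid plexus expresses, and Zmym1 (0.56, SE 0.074). The SE of Tent5a was thus like that of Zmym1 and far under those of the choroid plexus genes. With the mean of the choroid plexus markers as a covariate the difference of Tent5a was 0.58, and with the 3′ minus 5′ control signal it was 0.58 as well. Its mean signal was higher than that of 53.9% of all probe sets, so Tent5a stood near the middle of them by rank. On the log2 scale its mean lay in the lower part of the range of values. Tent5a has a single probe set here, and no second reading of its transcript was available to set beside it.

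Tent5b showed no such separation. Its probe set read 3.60, 3.83 and 4.09 at the lowest, median and highest of the sleep-deprived arrays. In undisturbed arrays it read 3.73, 3.79 and 3.945. The undisturbed values all lay inside the sleep-deprived range. The means were 3.83 ± 0.15 (SD, n = 8) after sleep deprivation and 3.82 ± 0.073 (SD, n = 9) in undisturbed animals, a log2 difference of 0.016 (SE 0.056, 95% interval -0.10 to 0.13). Only 8.04% of all probe sets were dimmer. Signals that low can be mostly nonspecific binding, so a change of a weakly expressed transcript may not be detectable here.

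The Tent5c probe sets likewise overlapped between the groups. The brighter read 4.77, 5.01 and 5.31 at the lowest, median and highest of the sleep-deprived arrays. In undisturbed arrays it read 4.90, 5.05 and 5.15. The means were 5.03 ± 0.19 (SD, n = 8) after sleep deprivation and 5.045 ± 0.085 (SD, n = 9) in undisturbed animals, with a log2 difference of -0.016 (SE 0.066, 95% interval -0.15 to 0.12). The dimmer read 4.03, 4.47 and 4.56 in sleep-deprived arrays and 4.30, 4.47 and 4.545 in undisturbed arrays. The difference of the dimmer was 0.0014 (SE 0.063, 95% interval -0.13 to 0.13). All 9 undisturbed arrays lay above the lowest sleep-deprived array on each of them. The signals stood above 33.1% and 21.2% of all probe sets. The 95% intervals of Tent5b and of both Tent5c probe sets lay between -0.15 and 0.13. The difference between genes was not tested, because the family was chosen for it.

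Spread between animals was larger after sleep deprivation for Tent5b and Tent5c and smaller for Tent5a, which was not tested. The ratio of the SD in sleep-deprived to that in undisturbed animals was 2.01 for Tent5b, 2.22 and 1.76 for the Tent5c probe sets and 0.73 for Tent5a. Over all probe sets the median ratio was 1.10, and 22.6% had a ratio above 1.5. Sleep-deprived replicate 4 was the lowest of its group on each of the 4 Tent5 probe sets, at 6.60 for Tent5a, 3.60 for Tent5b and 4.77 and 4.03 for Tent5c. It was the lowest sleep-deprived array on 14.6% of all probe sets, and on 21.6% of the 16775 probe sets no more than 0.25 brighter than the brighter Tent5c probe set. Without that animal the differences were 0.61 for Tent5a, 0.049 for Tent5b, and 0.021 and 0.057 for Tent5c. The lowest Tent5a value of the undisturbed group was that of replicate 5, at 5.82, and without it the difference of Tent5a was 0.53.

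**Figure D2:**
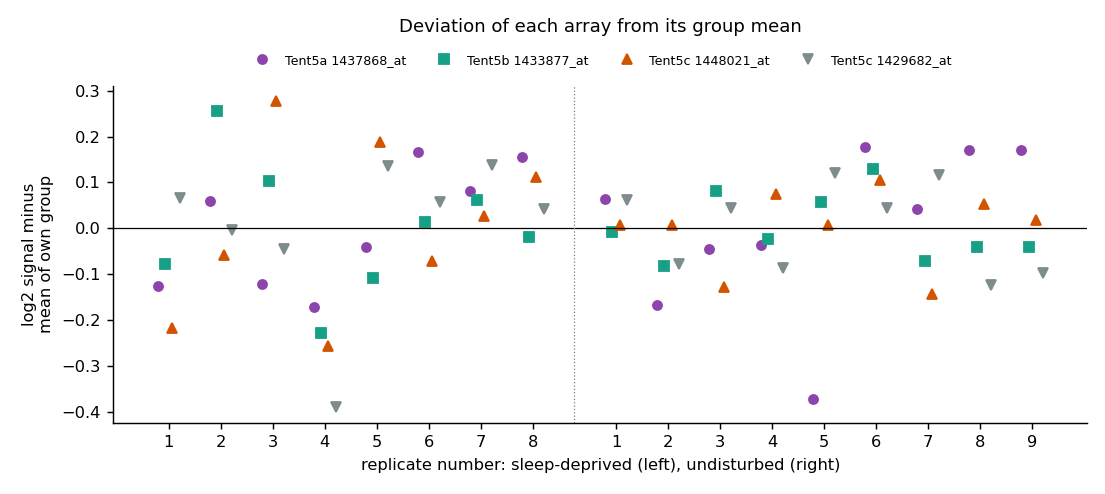
Deviation of each array from the mean of its own group (log2), for the 4 Tent5 probe sets, with sleep-deprived animals left of undisturbed animals along the horizontal axis. Points are single arrays. Sleep-deprived replicate 4 lies lowest of its group on all 4 probe sets, and undisturbed replicate 5 lies lowest of its group for Tent5a alone.

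No pair of the family's probe sets passed a test of varying together among animals of the same group. Deviations from the group means were correlated over the 17 arrays, with p-values from 100000 permutations within groups, adjusted over the 6 pairs. Tent5a and Tent5b gave r = 0.20 (Spearman's rho 0.31, adjusted p = 0.579 and 0.668), and r = 0.19 without the 2 arrays farthest from the median of Tent5a. The 2 arrays left out were chosen anew for each pair, on the probe set named first. Tent5a and the brighter Tent5c probe set gave r = 0.17 (rho 0.35, adjusted p = 0.579 and 0.668), and 0.039 without the 2 farthest arrays. The closest pair was Tent5b with the dimmer Tent5c probe set, at r = 0.42 (rho 0.16, adjusted p = 0.579 and 0.825), and 0.11 without the 2 farthest arrays. The 2 probe sets of Tent5c correlated at r = 0.25 (rho -0.020, adjusted p = 0.579 and 0.945). Without the 2 arrays farthest from the median of the brighter they gave r = -0.12. They gave r = 0.465 among sleep-deprived and -0.489 among undisturbed animals.

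Correlations of Tent5a with genes of neuronal activity did not pass correction, the largest being that with Fos among animals kept awake. Fos and the nuclear receptor gene Nr4a1 are transcription factor genes induced by neuronal activity, and with Arc and the stress and chaperone genes Hspa5, Tsc22d3, Sgk1 and Hspb1 they were picked for this comparison because earlier results of these arrays showed them higher after sleep deprivation. Over the 8 sleep-deprived animals Tent5a correlated with Fos at r = 0.84 (exact permutation test, p = 0.00481, adjusted p = 0.101 over 21 relations). Spearman's rho was 0.69 (exact permutation test, p = 0.0694, adjusted p = 0.52), and r was 0.73 without the 2 animals farthest from the median of Fos. For Nr4a1 the values were r = 0.78 (exact permutation test, adjusted p = 0.345) and rho 0.667, and for Arc r = 0.645 (exact permutation test, adjusted p = 0.606) and rho 0.643. Among the 9 undisturbed animals the same genes gave r = 0.181 for Fos, 0.168 for Nr4a1 and -0.175 for Arc. Over all 17 arrays, as deviations from the group means, they gave r = 0.41 for Fos, 0.39 for Nr4a1 and 0.053 for Arc. The adjusted p-values of these were 0.606, 0.606 and 0.917 (permutation within groups). None of the 21 relations passed the correction, and the difference between the groups was not tested. Hspa5, a chaperone of the endoplasmic reticulum, gave r = 0.0070 among sleep-deprived and 0.50 among undisturbed animals. Tsc22d3, a glucocorticoid-induced gene, gave -0.335 among sleep-deprived and -0.296 among undisturbed animals. In the same order of groups Sgk1 gave 0.065 and -0.19, and Hspb1 gave 0.105 and 0.33.

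The genes whose animal-to-animal pattern was most like that of Tent5a were found by the Pearson correlation of deviations from the group means over 17 arrays, among 11572 genes with a mean signal of at least 6. They were Anxa4 (r = 0.79), which encodes a calcium-dependent phospholipid-binding protein, Brip1os (0.78), Nid1 (0.75), which encodes the basement membrane protein nidogen, Laptm4b (0.73) and Mylip (0.72), which encodes an E3 ubiquitin ligase for lipoprotein receptors. Pms2 (-0.78), Slc30a7 (-0.77) and Shisal1 (-0.76) were the most opposed. Being the extremes of so many genes they carry no p-value, and 11 genes in all had r above 0.7. By rank correlation 4 of the 5 most similar genes were among the first 50, and after quantile normalization all 5 were. Their own differences between the groups were -0.082 for Anxa4, -0.058 for Brip1os, -0.088 for Nid1, -0.041 for Laptm4b and -0.18 for Mylip. Of these 5 Mylip alone passed the test as lower (limma, adjusted p = 0.043). Of the 187 eligible genes that rose after sleep deprivation, 48 had a positive r with Tent5a, or 25.7%, against 42.3% of all eligible genes, and their median r was -0.17 against -0.053.

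For Tent5b the most similar genes were Ccdc167 (r = 0.81), Krtap3-1 (0.78), Myl3 (0.77), Ighm (0.77) and Creb3l1 (0.76), and the most opposed were Exo5 (-0.80), Rapgef5 (-0.78) and Lcmt2 (-0.76). Genes of hair keratin, cardiac myosin and immunoglobulin stand among them, which are known mainly from other tissues. By rank correlation 3 of the 5 most similar genes were among the first 50, and after quantile normalization all 5 were. In the order named, their r was 0.86, 0.87, 0.90, 0.87 and 0.88 among sleep-deprived animals. Among undisturbed animals it was 0.62, 0.40, 0.43, 0.46 and 0.25. For the brighter Tent5c probe set they were Hspb1 (0.84), a small heat shock protein gene, A2m (0.83), Slamf9 (0.82), Yap1 (0.82), a transcriptional coactivator gene, and Ccdc80 (0.80). The most opposed to Tent5c were Acap2 (-0.85), Rasd1 (-0.83) and Rerg (-0.81). Hspb1 was the 1 gene of these 16 that passed the test between groups, being higher after sleep deprivation (0.50, SE 0.087, limma adjusted p = 0.0020), while the probe set of Tent5c differed by -0.016.

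The brighter Tent5c probe set correlated with several marker lists, of which endothelial, fibroblast and pericyte, and principal cell markers passed the correction. The mean of 7 endothelial markers gave r = 0.69 over the 17 arrays (permutation within groups, adjusted p = 0.017 over 44 relations; rho 0.73, adjusted p = 0.024). That of 8 fibroblast and pericyte markers gave r = 0.62 (permutation, adjusted p = 0.0088; rho 0.74, adjusted p = 0.0018). That of 10 principal cell markers gave r = -0.72 (permutation, adjusted p = 0.025; rho -0.75, adjusted p = 0.015). Without the 2 arrays farthest from the median of each marker mean the values were 0.71, 0.66 and -0.66. The relations had the same sign in each group: 0.81, 0.82 and -0.80 among sleep-deprived and 0.73, 0.78 and -0.66 among undisturbed animals. The dimmer Tent5c probe set gave 0.047, -0.066 and -0.019 with the same lists. Sleep-deprived replicate 5 had the highest endothelial and fibroblast and pericyte means of its group (8.19 and 8.81) and the lowest principal cell mean (9.52). The 3 relations may therefore not be separate results, and how far the marker means vary together was not tested. Plasma and B cell markers gave the brighter probe set r = 0.703 (permutation, adjusted p = 0.119; rho 0.491, adjusted p = 0.364), and 0.443 without the 2 farthest arrays. Neuronal markers gave r = -0.54 (permutation, adjusted p = 0.338) and rho -0.607 (adjusted p = 0.15), and r = -0.305 without the 2 arrays farthest on that list. Choroid plexus markers gave r = 0.64 (permutation, adjusted p = 0.146) and rho 0.614 (permutation, adjusted p = 0.15), and r = 0.629 without the 2 farthest arrays. Within groups r was 0.687 among sleep-deprived and 0.532 among undisturbed animals. Choroid plexus levels fell into separate clusters of arrays inside each group, so the pooled and the within-group values can rest on a few arrays.

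**Figure D3:**
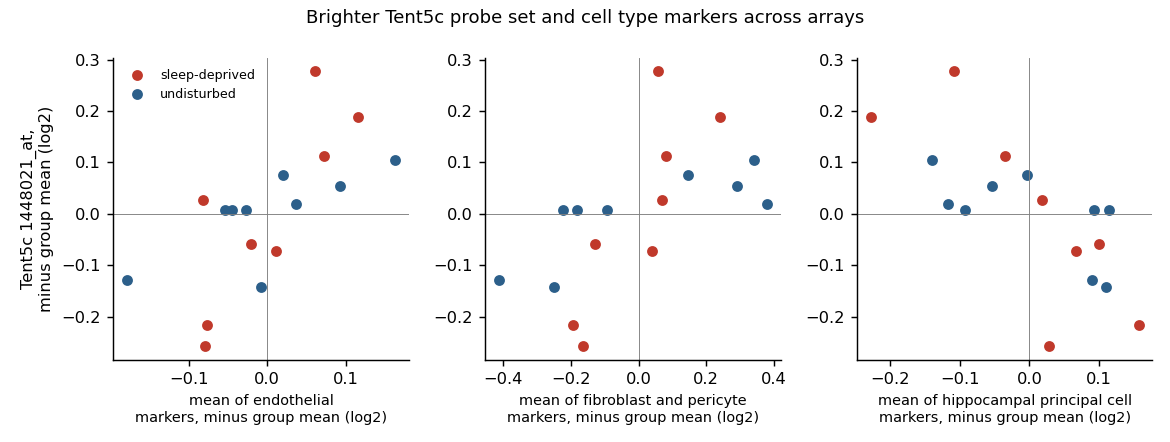
Brighter Tent5c probe set against the mean of endothelial, fibroblast and pericyte, and hippocampal principal cell markers, each as the deviation of an array from its group mean (log2). Red points are sleep-deprived arrays (n = 8) and blue points undisturbed arrays (n = 9). Tent5c rises with the first 2 marker means (r = 0.69 and 0.62) and falls with the third (r = -0.72) in both groups.

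For Tent5a the same marker means gave r = 0.47 (permutation, adjusted p = 0.34; rho 0.57, adjusted p = 0.15), 0.49 (adjusted p = 0.34; rho 0.57, adjusted p = 0.17) and -0.057 (adjusted p = 0.97; rho -0.25, adjusted p = 0.94). Without the 2 farthest arrays they were 0.44, 0.46 and 0.014. Between the groups, the members of these lists that passed the test were lower after sleep deprivation. The endothelial mean lay between 7.99 and 8.19 in sleep-deprived and between 7.995 and 8.34 in undisturbed animals, and 2 of 7 members fell: Slco1a4 (-0.32, limma adjusted p = 0.0057), a blood-brain barrier transporter gene, and Tek (-0.26, adjusted p = 0.040), an angiopoietin receptor gene. Over all genes 2.73% passed as lower, and 3 of the 7 had positive differences: Flt1 at 0.021, Pecam1 at 0.052 and Kdr at 0.0036. The fibroblast and pericyte mean lay between 8.37 and 8.81 in sleep-deprived and between 8.26 and 9.055 in undisturbed animals. Of its 8 members 1 fell, Pdgfrb (-0.37, adjusted p = 0.0049), a receptor gene of pericytes. Another 3 had positive differences: Ogn at 0.024, Rgs5 at 0.00076 and Kcnj8 at 0.082. For Tent5b the 6 markers of B cells and plasma cells gave r = 0.725 (permutation, adjusted p = 0.102; rho 0.76, adjusted p = 0.024), and 0.80 without the 2 farthest arrays. Their mean was dim, between 5.11 and 5.50 in sleep-deprived and between 5.11 and 5.25 in undisturbed animals. Ighm among them was brighter, at 7.54 in sleep-deprived and 7.46 in undisturbed animals. Ighm also stood among the genes most like Tent5b, so these results overlap. The part of these markers in the Tent5b signal was not tested.

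As compared here, none of the listed genes of poly(A) tail metabolism passed the test as higher after sleep deprivation. Across 8 lists of its genes, 91 genes were measured, each through its brightest probe set, and compared by limma with Benjamini-Hochberg adjustment over all 18193 genes. Of the 91, none rose, 6 fell and 85 did not pass an adjusted p of 0.05. Without adjustment 4 were higher and 19 lower at p under 0.05. Cstf3, a cleavage stimulation factor subunit gene, was close, at 0.14 (SE 0.043, adjusted p = 0.060) with all 8 sleep-deprived animals above the undisturbed mean. It passed as higher in 6 alternatives (adjusted p = 0.033 to 0.047), and Pabpc1l, a poly(A)-binding protein gene, passed as higher in 1, without sleep-deprived replicate 5 (adjusted p = 0.049). Over all genes 3.97% passed, 1.25% as higher and 2.73% as lower, against 6.59% of the 91 as lower. The median difference of the 91 genes was -0.038 and that of all genes 0.0016.

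**Figure D4:**
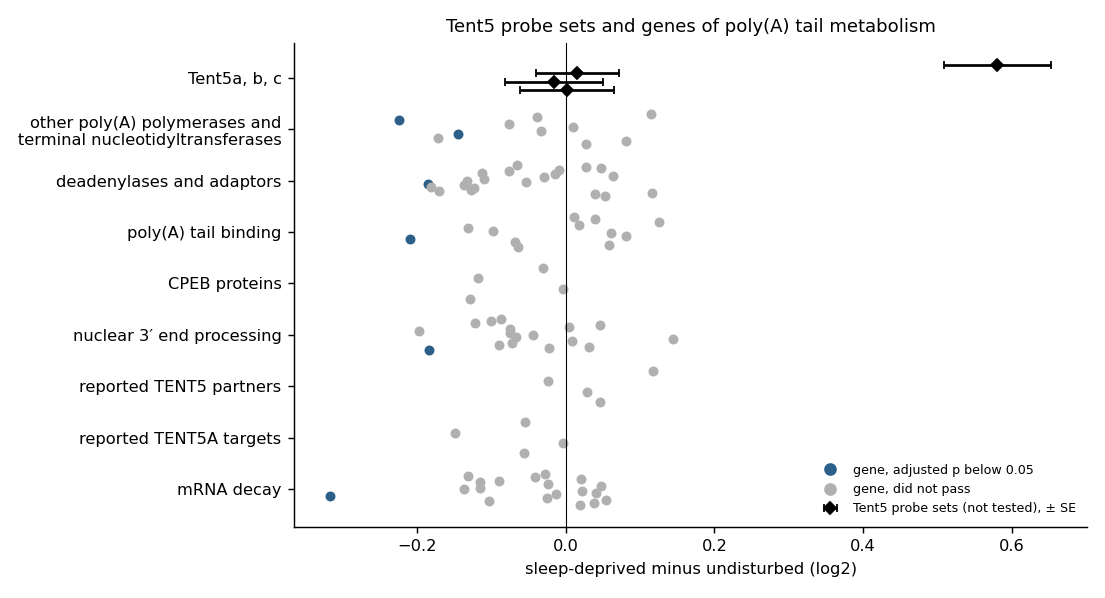
Differences between sleep-deprived and undisturbed animals (log2) for the 4 Tent5 probe sets (diamonds, ± SE, not tested) and for the 91 genes of 8 poly(A) tail lists (circles). Blue circles passed an adjusted p of 0.05 and grey circles did not. All 6 genes that passed lie below 0. No list gene reaches the 0.58 of Tent5a, from which nothing is read, since the family was chosen on that difference.

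Among the other poly(A) polymerases and terminal nucleotidyltransferases, 2 of 10 measured genes fell and none rose (limma, 5 at an unadjusted p under 0.05). Over all genes 2.73% passed as lower and 1.25% as higher. Tut4, whose enzyme adds uridines to short-tailed messages and to microRNA precursors, had 7.90 ± 0.13 (SD, n = 8) in sleep-deprived and 8.125 ± 0.14 (SD, n = 9) in undisturbed animals (-0.22, SE 0.061, adjusted p = 0.040). Its 4 dimmer probe sets lay between -0.086 and 0.041 and did not pass in the fit over all 45037 probe sets, where the brightest missed as well (adjusted p = 0.065). With the mean of all 5 the difference was -0.055 (adjusted p = 0.72). Mtpap, the mitochondrial poly(A) polymerase gene, had 9.085 ± 0.088 (SD, n = 8) in sleep-deprived and 9.23 ± 0.047 (SD, n = 9) in undisturbed animals (-0.145, SE 0.041, adjusted p = 0.048). All 8 sleep-deprived animals lay below the undisturbed mean for each gene. The 8 genes that did not pass lay between -0.17 and 0.11. The lowest was Papola, whose dimmer probe sets did not share a sign, at -0.12, 0.18, 0.21 and 0.14. None of its probe sets passed in the fit over all probe sets (limma, adjusted p of 0.056 or more). Tent5d, the remaining gene of the family, was not analysed here.

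Of 21 deadenylases, the enzymes that shorten tails, and their adaptors, 1 fell and 20 did not pass. Since 2.73% of all genes passed as lower, nothing is read about a list from a single call. Parn, a poly(A)-specific ribonuclease gene, had 8.00 ± 0.10 (SD, n = 8) in sleep-deprived and 8.19 ± 0.088 (SD, n = 9) in undisturbed animals (-0.18, SE 0.048, adjusted p = 0.032). Its other probe set gave -0.19. Of 12 poly(A) tail binding proteins and partners 1 fell: Zc3h14, a poly(A)-binding protein gene whose loss causes intellectual disability in humans. It had 10.14 ± 0.11 (SD, n = 8) in sleep-deprived and 10.35 ± 0.079 (SD, n = 9) in undisturbed animals (-0.21, SE 0.049, adjusted p = 0.017), and its other probe set gave -0.12 without passing. Of 17 genes of nuclear 3′ end processing 1 fell, Rbbp6, whose protein takes part in cleavage at the poly(A) site (-0.18, SE 0.051, adjusted p = 0.046), and the differences of its 3 dimmer probe sets were -0.28, -0.035 and -0.18. Of 19 genes of decay after deadenylation 1 fell: Dis3, a catalytic subunit gene of the RNA exosome, with 7.03 ± 0.14 (SD, n = 8) in sleep-deprived and 7.34 ± 0.12 (SD, n = 9) in undisturbed animals (-0.32, SE 0.061, adjusted p = 0.0044). For each of these 4 genes all 8 sleep-deprived animals were below the undisturbed mean. In the fit over all probe sets, which adjusts over more features, the brightest probe sets of Zc3h14 and Dis3 passed (adjusted p = 0.031 and 0.0086). Those of Tut4, Mtpap, Parn and Rbbp6 did not (adjusted p = 0.065, 0.082, 0.056 and 0.076), while a dimmer one of Rbbp6 did (adjusted p = 0.028).

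None of the 4 cytoplasmic polyadenylation element binding genes passed, with Cpeb4 at -0.13 (limma, adjusted p = 0.23, the 1 gene with an unadjusted p under 0.05) and Cpeb2 at -0.12 (adjusted p = 0.38). None of 4 reported partners of TENT5 proteins passed either. Fndc3a, whose protein holds TENT5 enzymes at the endoplasmic reticulum, was at 0.12 (SE 0.051, adjusted p = 0.21, unadjusted p = 0.031), and Plk4, a centriole kinase gene, at 0.046 (adjusted p = 0.75). Of 4 messages reported as TENT5A targets in bone cells none passed, and none had an unadjusted p under 0.05. Col1a2, a collagen gene, was at -0.15 (SE 0.16, adjusted p = 0.66) and Serpinf1 at -0.056 (adjusted p = 0.71). The calls of Tut4, Mtpap, Parn and Rbbp6 were lost without any 1 of 9, 15, 9 and 13 of the 17 arrays (adjusted p up to 0.080, 0.099, 0.070 and 0.098) and also with the choroid plexus markers as a covariate (adjusted p = 0.072, 0.069, 0.054 and 0.084). With that covariate their differences were -0.20, -0.15, -0.18 and -0.17, close to those without it. Those of Zc3h14 and Dis3 held in each of the 17 fits with an array left out (adjusted p up to 0.038 and 0.012) and in the 11 other alternatives.

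**Figure D5:**
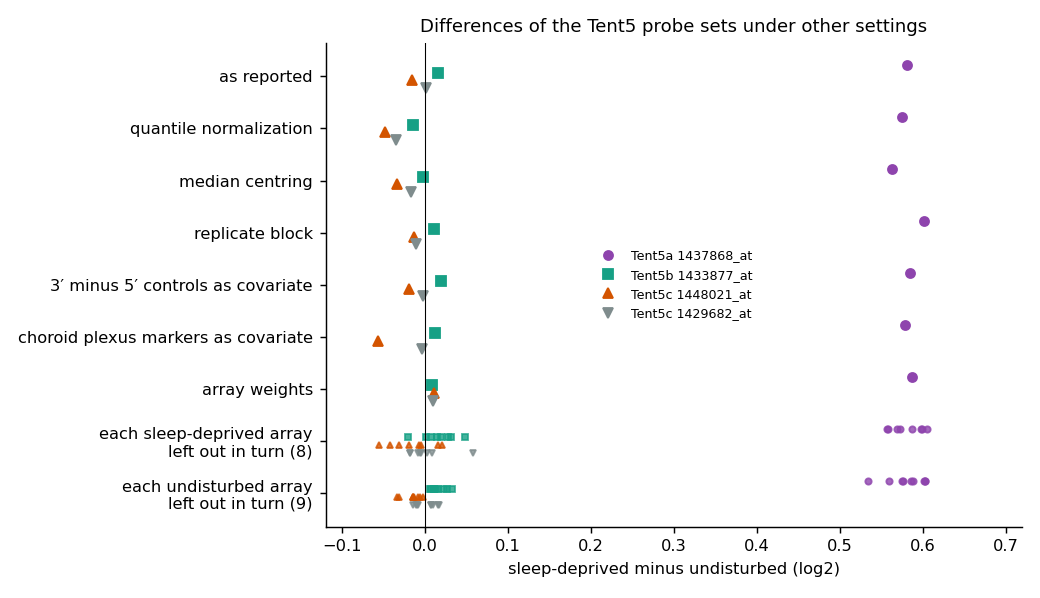
Differences between sleep-deprived and undisturbed animals (log2) of the 4 Tent5 probe sets as reported, under 6 other settings and with each array left out in turn. Each mark is 1 fit. Tent5a stays between 0.53 and 0.61, and the other probe sets stay between -0.057 and 0.057.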

How the data were processed

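Hippocampal RNA of 17 mice, 1 per array, was grouped by the sample titles. The authors deposited log2 signal for each probe set, after RMA in the affy package, per the submitters' processing notes, which give no versions. The log2 scale was inferred from the range (2.90 to 14.8).

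Of 45101 rows 64 were controls. Symbols came from the platform annotation, and 34945 probe sets had 1 symbol. List symbols were matched through RefSeq (GRCm38.p6) identifiers. The groups were compared with limma 3.58.1 in R 4.3.3 (lmFit, eBayes) over 45037 probe sets and over 18193 genes, each by its brightest probe set. Marker and gene lists, the naming of called list genes and of the 5 most and 3 least similar genes, and the members themselves were chosen with earlier results of these data known. The activity and stress genes were added later. The fit was tested on simulated data. Alternatives changed scaling, covariates, weights, filters and the choice of probe set. Correlations used 100000 permutations within groups, or all permutations within 1 group. No scan date was used, and the number of arrays limits the precision.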

Additional observations from a re-analysis of the deposited data

Results flagged for a closer look

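The dimmer Tent5c probe set read 4.03 on sleep-deprived replicate 4, apart from the other 7 sleep-deprived arrays, which lay between 4.38 and 4.56. The gap to the nearest array was 0.652 of the group's range, above Dixon's critical value of 0.526 for 8 samples. About 1 group in 20 passes that value by chance, and 8 groups were examined. The same array was the lowest of its group on the other 3 Tent5 probe sets without passing Dixon's value there.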

How the results depend on the processing

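Under quantile normalization, median centring, the replicate block, either covariate and array weights the difference of Tent5a lay between 0.56 and 0.60, and with each array left out in turn between 0.53 and 0.61. With an array left out Tent5b lay between -0.021 and 0.049, the brighter Tent5c probe set between -0.055 and 0.021 and the dimmer between -0.019 and 0.057, so their sign was not settled. The replicate block leaves out undisturbed replicate 9, which has no partner: it gave 913 called genes, against 640 without that array and without the block, and 0.60 for Tent5a in both. Same-numbered arrays deviated together (correlation over 0.1) in 4 of 8 pairs, and 1 of 8 sleep-deprived arrays was closest to its own number, so the numbers were not taken as pairing. Left-out fits called 481 (without undisturbed replicate 4) to 817 genes. The list counts moved most. The count of 2 among the other terminal nucleotidyltransferases was 1 under quantile normalization, the replicate block, the 3′ minus 5′ covariate and the mean of probe sets, and 0 under the choroid plexus covariate, array weights and the most variable probe set. The deadenylase count of 1 was 0 under quantile normalization, the choroid plexus covariate and the most variable probe set. Under the replicate block it stayed at 1 with a different gene. Parn was lost there (limma, adjusted p = 0.061) and Noct passed as lower (adjusted p = 0.0499). The nuclear 3′ end count of 1 was 0 under either covariate and 2, with Cstf3 higher, under quantile normalization, signal minimums of 5 and 6, and trend and robust options. Cstf3 also passed with array weights, where Rbbp6 was lost (limma, adjusted p = 0.055), and without sleep-deprived replicate 1. Pabpc1l passed without sleep-deprived replicate 5. Over all lists, 2 genes were called with the choroid plexus covariate and 3 with the most variable probe set, against 6. Where a list had 0 calls by limma, 2 to 5 terminal nucleotidyltransferases, 3 to 7 deadenylases and 4 to 5 nuclear genes had an unadjusted p under 0.05. Left-out fits gave 0 to 2 terminal nucleotidyltransferases, 0 to 1 deadenylases, 1 to 2 tail binding genes, 0 to 2 nuclear genes, 1 decay gene and 2 to 7 over all lists. The cause was not tested. Tent5b and Tent5c lay low on the signal scale, which limits what could be detected.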
